A study of Mus musculus with 19 samples.

Results

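The 42 genes described here encode the proteins that build the autophagosome and the receptors that hand cargo and mitochondria to it, and they were measured in single mouse blastocysts with or without UPF2. The genes were taken as a list of symbols, from *Ulk1* at the start of the pathway to *Fundc1* on the mitochondrial surface, and all 42 were found among the 41388 genes of the count table. UPF2 is a core factor of nonsense-mediated RNA decay (NMD), which removes transcripts that end translation too early. Each of the 19 libraries held the RNA of 1 whole embryo at E3.25, 8 of them *Upf2*-null (*Upf2* -/-) and 11 control (*Upf2* +/+), all from crosses of *Upf2*-heterozygous mice on a C57BL/6 background. The null allele lacks exons 2 and 3, which Cre recombinase under the *E2a* promoter had deleted when the line was made, and leaves a truncated protein without NMD activity. The mothers were 4 to 8 weeks old and superovulated, and the embryos were cultured as zygotes and collected 90 to 94 h after hCG. The study calls the controls littermates, but which embryos shared a litter was not given in the sources used here. Batch and embryo sex were not given either. Since every library is a whole embryo, fewer cells of a type and less RNA per cell cannot be told apart.

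Macroautophagy encloses cytoplasm in a growing membrane, which closes into an autophagosome and fuses with the lysosome. The ULK kinase complex starts the process, a class III PI3-kinase complex marks the site with phosphatidylinositol 3-phosphate, ATG9 vesicles and ATG2 supply lipid, and a pair of ubiquitin-like conjugation systems attaches ATG8 proteins (LC3 and GABARAP) to the membrane, where cargo receptors dock. In mitophagy the cargo is a damaged or surplus mitochondrion. Autophagy is needed in the fertilised mouse egg, where loss of maternal *Atg5* together with the zygotic gene stops development before the blastocyst.

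Total counts per library were 4068350 to 5993745 (median 4824546.5) in *Upf2*-null blastocysts and 4056072 to 5854659 (median 5008508) in controls, and no gene exceeded 4884 counts in any embryo. Epiblast markers were lower as a sum in the *Upf2*-null blastocysts, with ranges that overlapped. The sum over 10 markers, all tested, was 539.7, 609 and 684 CPM (lowest, median and highest embryo) in *Upf2*-null blastocysts and 612, 799 and 1119 CPM in control blastocysts. Of these 10 markers, 7 had a log2 fold change (*Upf2*-null over control) below 0 and 3 above. EdgeR called 0 of them at an adjusted p under 0.1. The sum of 12 trophectoderm markers also overlapped between the groups, with a median of 1896 CPM in *Upf2*-null blastocysts and 1861 CPM in control blastocysts. Of the 9 primitive endoderm markers tested, *Dab2*, which the trophectoderm also expresses, supplied 67.9% of the sum. The other 8 had 289 to 401 CPM (median 325) in *Upf2*-null blastocysts and 205 to 442 CPM (median 276) in control blastocysts. Of 10 cumulus and granulosa cell markers only 2 reached the count minimum, and 2 had no count in any embryo. *Upf2* itself, counted over the whole gene including the exons outside the deletion, had 64.2 to 122 CPM in *Upf2*-null blastocysts and 37.1 to 87.7 CPM in control blastocysts, so this count does not check the genotype. *Upf2*-null 4, *Upf2*-null 7 and control 6 were singled out after their values were seen. All were among the 4 lowest of the 19 embryos for 996 of 9245 genes with a mean of at least 10 CPM (10.8%). No other set of embryos was counted in this way. Values without *Upf2*-null 4 and 7 and control 6 are given for the members that these embryos bear on most.

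Most members were well represented in blastocysts of either genotype. The members' median level stood at percentile 84.3 of all genes tested, and 16 members were at percentile 90 or above. Expressed per kilobase of annotated exons, *Atg101* (119 CPM per kb in *Upf2*-null blastocysts and 143 in controls), *Gabarapl2* (128 in null and 126 in control blastocysts), *Map1lc3a* (116 in null and 141 in control blastocysts) and the cargo receptor *Sqstm1* (112 in null and 117 in control blastocysts) had the 4 highest levels in controls, and *Fis1*, at 118 in null and 94.9 in control blastocysts, came after *Gabarapl2* and *Atg101* in *Upf2*-null blastocysts. *Wipi1*, *Ulk2* and *Atg9b* were the lowest in both groups. *Wipi1* had 33 counts in the 8 *Upf2*-null libraries together and 95 in the 11 control libraries. These levels depend on the length assumed: with the median transcript length in place of all exons, *Atg4b* had the highest control level of the 42, at 757 CPM per kb.

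**Figure D1:**
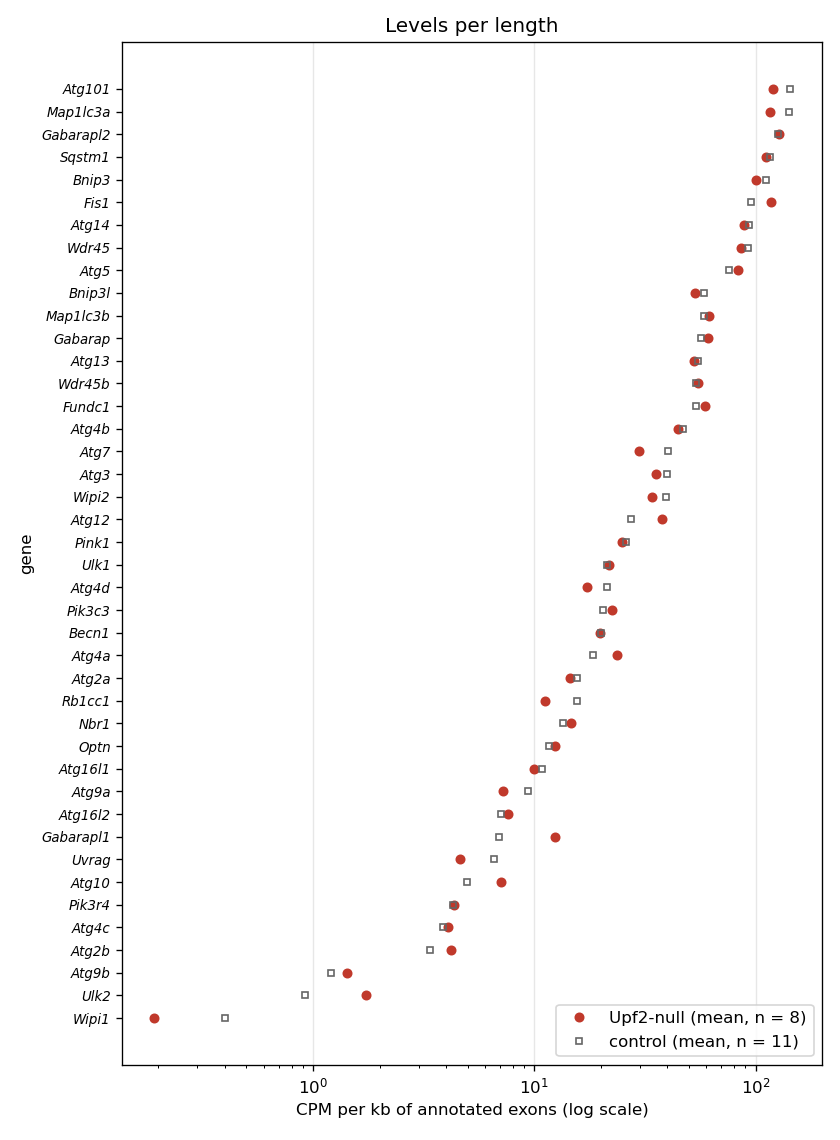
Mean level of each of the 42 members in CPM per kilobase of annotated exons (log scale), with *Upf2*-null blastocysts as filled circles and controls as open squares. The genes are ordered by their control level, with *Wipi1* lowest (0.192 in *Upf2*-null blastocysts and 0.4 in controls) and *Atg101* at the other end (119 in null and 143 in control blastocysts), and for most genes the 2 symbols nearly coincide.

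Promoter sequence was read for the 34 members with an entry in the RefSeq promoter set (GRCm38.p6, 250 bases before to 50 after each start), on both strands. The ATF4 and CHOP core TGATGNAA was in none of these windows, beside 4.51% of 27025 genes. The CLEAR element TCACGTGA, bound by the lysosomal regulators TFEB and TFE3, was in the promoter of 1 member, *Atg3*, beside 1.12% of genes. The hypoxia core ACGTG, which lies within the CLEAR element, was in 15 of the 34 members, beside 21.8% of genes. Stretches of 30 bases are shown for the single CLEAR element, for *Bnip3*, a known hypoxia target, and for *Atg5* and *Atg7*, the ATG12 partner and its activating enzyme, with the motif in capitals. They are at chr16:45158746-45158775 (plus strand), chr7:138909596-138909625 (minus strand), chr10:44268314-44268343 (plus strand) and chr6:114670953-114670982 (plus strand).
Atg3: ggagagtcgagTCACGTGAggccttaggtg
Bnip3: cgcacgcgccgcACGTGccacacgctcccc
Atg5: ggagcgcttgccACGTGgtcttggtgacgt
Atg7: atattggtggtcACGTGtgcagtaagtgaa
A match is a run of letters and not a bound site. The values of these genes are given with their roles.

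Most members differed little between the genotypes in these counts. PCR duplicates had been discarded before counting, and no gene exceeded 4884 counts in an embryo. *Map1lc3b* stayed at 2004 to 2471 counts in every embryo. Whether this narrowed the differences of well-counted members was not tested. The median log2 fold change (*Upf2*-null over control) of the 42 members was -0.0003, with 21 above 0 and 21 below, against a median of -0.0202 over all 17137 genes tested. For 27 members the fold change was under 0.25 on the log2 scale, and for 35 of the 42 the 95% normal interval left out a 2-fold change in either direction. In edgeR's quasi-likelihood test, adjusted by Benjamini-Hochberg over all genes tested, 1 member (*Atg12*) was higher at an adjusted p under 0.1 and 0 were lower, where 0.175% of all genes were called higher and 0.0175% lower. At an unadjusted p under 0.05, 3 members were higher (*Atg12*, *Fis1* and *Gabarapl1*) and 3 lower (*Rb1cc1*, *Wipi2* and *Atg7*). The same rule took 5.15% of all genes as higher and 7.38% as lower, and 4.51% as higher and 4.48% as lower of the genes with a mean of at least 10 CPM, to which 39 members belong. DESeq2 called the same 3 members higher and 0 lower, where it called 0.595% of all genes higher and 0.432% lower. For every member the ranges of the genotypes overlapped, and the share of all genes with such overlap was not counted. The 3 lower members stood beside a lower sum of epiblast markers. Of the 10 markers, 4 were lower at the same unadjusted rule, 0 were called by edgeR and 3 had a log2 fold change above 0. The part of these cells in the result was not tested. *Atg12* was known to be higher when the list was proposed.

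**Figure D2:**
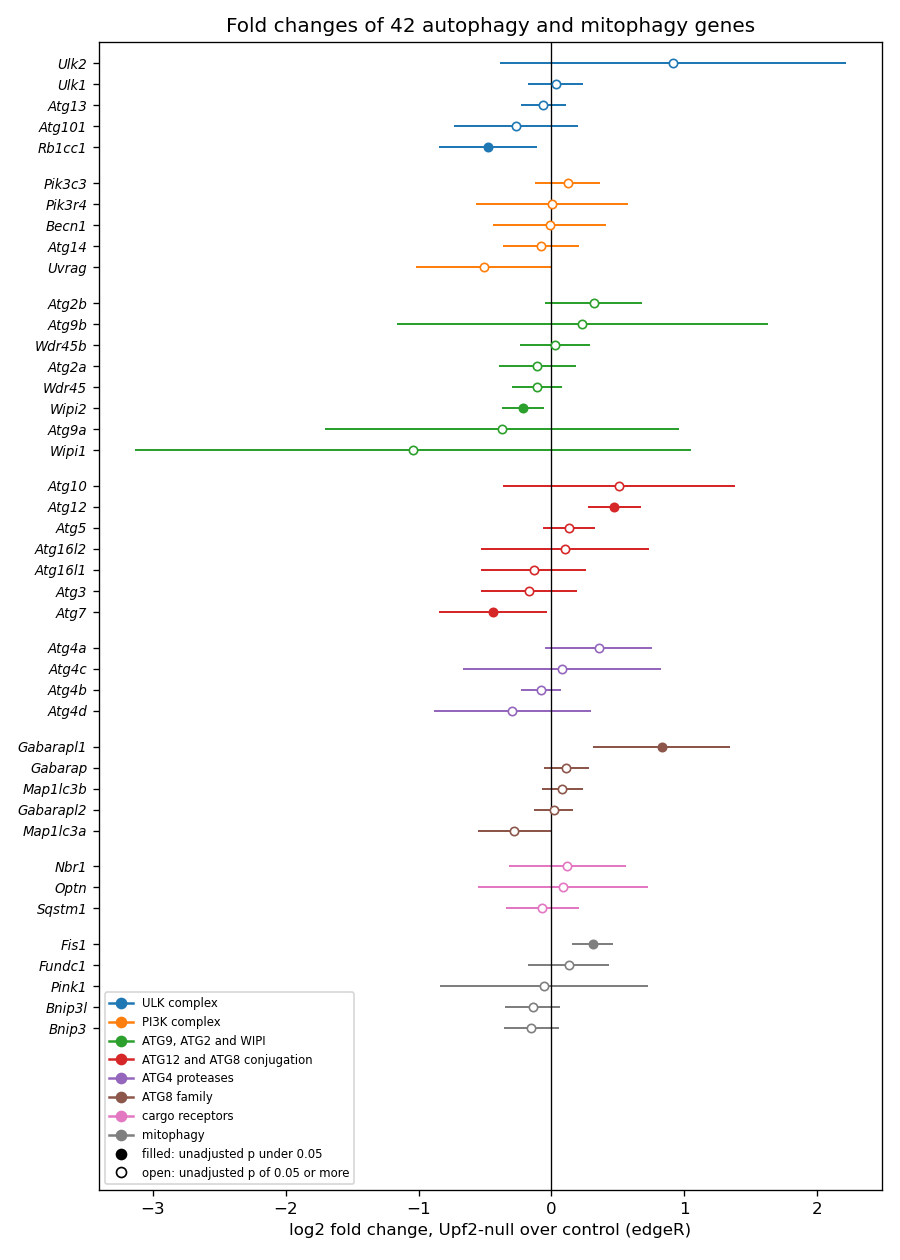
Log2 fold change of each member, *Upf2*-null over control, with its 95% normal interval from the fitted SE, coloured by role and ordered within each role. These intervals can be narrower than the test implies: that of *Map1lc3a* leaves out 0 (-0.55 to -0.005) although its edgeR p was 0.059. Filled points have an unadjusted edgeR p under 0.05. 21 members lie on each side of 0, and the wide intervals belong to the members with low or erratic counts (*Wipi1*, *Atg9a*, *Atg9b* and *Ulk2*).

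Of the 5 subunits of the ULK initiation complex, only the scaffold *Rb1cc1* (FIP200), which holds the kinase at the site of assembly, passed an unadjusted p of 0.05. It had 119, 154 and 215 CPM (lowest, median and highest) in *Upf2*-null blastocysts and 138, 206 and 382 CPM in control blastocysts. The groups overlapped, with 5 controls above every *Upf2*-null embryo. The log2 fold change was -0.48 (SE 0.19, edgeR p = 0.0196, adjusted p = 0.278). Control embryos 2 and 4, which earlier results of these data had set apart, were among those 5, with 297 and 382 CPM, and without both the unadjusted edgeR p was 0.0788. Control 11, with 362 CPM, was also among those 5 and stayed in that fit. Controls 2, 4 and 11 had the highest epiblast marker sums, 960, 956 and 1119 CPM. The part of this in the difference was not tested. In limma voom with quality weights *Rb1cc1* had a log2 fold change of -0.27 (p = 0.161). The kinase *Ulk1* (142 ± 26.9 CPM in *Upf2*-null blastocysts, SD, n = 8, and 139 ± 14.6 CPM in control blastocysts, n = 11) and the regulatory subunit *Atg13* (231 ± 27.5 CPM in null and 241 ± 31.1 CPM in control blastocysts) had log2 fold changes of 0.03 and -0.06. The second kinase gene, *Ulk2*, had 0, 7.29 and 32.2 CPM in *Upf2*-null blastocysts and 0.221, 5.81 and 10.4 CPM in control blastocysts, with a wide error (log2 fold change 0.92, SE 0.67, and 0.42 without *Upf2*-null 4 and 7 and control 6). *Atg101*, which stabilises ATG13, had 229.8 CPM as its median in *Upf2*-null blastocysts and 238 CPM in control blastocysts, but *Upf2*-null 4, *Upf2*-null 7 and control 6 had 64.6, 103 and 80.9 CPM against at least 159 CPM in every other embryo. Its log2 fold change was -0.27 (SE 0.24) with these embryos and -0.11 (SE 0.11) without them.

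In the PI3-kinase complex no member passed either threshold. Its lipid kinase *Pik3c3* (VPS34) had 99.8 ± 20.9 CPM in *Upf2*-null blastocysts and 91.7 ± 12.9 CPM in control blastocysts, and *Becn1*, the scaffold that BCL2 can bind, had 140.1 ± 44.8 CPM in null and 141 ± 41.9 CPM in control blastocysts (log2 fold change -0.01, SE 0.22). *Pik3r4* (VPS15), the partner of the kinase, had a log2 fold change of 0.01 (SE 0.29). *Atg14*, the subunit that directs the complex to autophagosomes, was among the most highly counted members, with 383 ± 100.3 CPM in *Upf2*-null blastocysts and 404 ± 79.0 CPM in control blastocysts. *Uvrag*, which replaces ATG14 in the endosomal form of the complex, had 18.5, 42.2 and 58.4 CPM in *Upf2*-null blastocysts and 30.2, 56.0 and 104 CPM in control blastocysts, a log2 fold change of -0.51 (SE 0.26, p = 0.067) that did not pass. *Cntd1* on the opposite strand overlaps 43.9% of the exon bases of *Becn1*. Strand is not stated for the counting, so reads of such overlapping genes cannot be told apart.

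Among the genes for ATG9, ATG2 and the WIPI proteins, which bind phosphatidylinositol 3-phosphate, *Wipi2* was lower at an unadjusted p only. It had 281, 365 and 442 CPM in *Upf2*-null blastocysts and 359, 418 and 496 CPM in control blastocysts. The ranges overlapped, with 4 *Upf2*-null blastocysts below every control. The log2 fold change was -0.21 (SE 0.08, edgeR p = 0.0168, adjusted p = 0.271). *Wdr45* (WIPI4) and *Wdr45b* (WIPI3), the partners of ATG2, had log2 fold changes of -0.11 and 0.03, and the lipid transfer genes *Atg2a* and *Atg2b* had -0.11 and 0.32. *Atg9a*, the scramblase that travels on the seed vesicles, varied more between embryos than any other well-counted member. *Upf2*-null 1 and 3 had 134 and 149 CPM, while the other 6 *Upf2*-null blastocysts had 5.65 to 17.2 CPM. Among controls the lowest, median and highest were 2.65, 47.9 and 138 CPM. The log2 fold change was -0.37 (SE 0.68) in edgeR and -1.60 in limma voom with quality weights (p = 0.024, adjusted p = 0.386). In edgeR it was -1.03 without *Upf2*-null 3, -0.13 without control 7 and -0.08 without *Upf2*-null 4 and 7 and control 6, and it was -1.28 with the replicate block and -1.27 in limma on the scaled table. Of the exon bases of *Atg9a*, 32.6% overlap *Ankzf1* on the opposite strand or *Gm29253*. *Atg9b* and *Wipi1* were too sparsely counted to place, with at most 85 and 31 counts in an embryo and log2 fold changes of 0.23 (SE 0.71) and -1.04 (SE 1.07).

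The only member called by edgeR was *Atg12*, the ubiquitin-like protein that is joined to ATG5 and so forms part of the enzyme that lipidates ATG8 proteins. It had 235, 283 and 373 CPM in *Upf2*-null blastocysts and 163, 208 and 276 CPM in control blastocysts. All 8 *Upf2*-null blastocysts were above the control median and 5 were above the highest control. *Upf2*-null blastocysts averaged 292 ± 43.1 CPM (SD, n = 8), against 210.3 ± 34.0 CPM (SD, n = 11) for controls, a 1.39-fold difference (log2 fold change 0.48, SE 0.10, edgeR adjusted p = 0.0812). DESeq2 gave an adjusted p of 0.0052 and limma voom 0.00898. The call was near its threshold: with each embryo left out in turn the log2 fold change stayed between 0.42 and 0.52, but the adjusted p ran from 0.0299 to 0.175 and passed in 8 of 19 fits, being lost without any of *Upf2*-null 4 to 8 or controls 1, 3, 4, 7, 8 and 9. *Upf2*-null 4 and 7 held the 2 highest values (373 and 333 CPM), and without these and control 6 the log2 fold change was 0.38 (edgeR adjusted p = 0.338), while the calls over all genes fell to 5 higher and 0 lower. Without control embryos 2 and 4 it was 0.53 (edgeR adjusted p = 0.0305). *Atg12* lies at chr18:46730144-46741580 (GRCm38, minus strand), and no other annotated gene overlaps its exons. Its longest annotated 3′ UTR has 4306 bases, beside a median of 1231 over the 42 members. Those of *Atg16l2* (4526 bases, log2 fold change 0.10) and *Atg4d* (4336 bases, log2 fold change -0.29) are longer. None of the 3 annotated transcripts of *Atg12* is classed as an NMD substrate.

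No other gene of the conjugation systems was called. *Atg7*, the E1-like enzyme that activates ATG12 and the ATG8 proteins, had 112, 202 and 311 CPM in *Upf2*-null blastocysts and 138, 293 and 367 CPM in control blastocysts. The ranges overlapped, with 5 controls above every *Upf2*-null embryo. The log2 fold change was -0.44 (SE 0.21, edgeR p = 0.0466, adjusted p = 0.388), with p = 0.122 without control embryos 2 and 4 and p = 0.07 without *Upf2*-null 4 and 7 and control 6, which had the values 130.5, 112 and 138 CPM. Voom gave p = 0.0807. *Atg5*, to which ATG12 is attached, had 196 ± 29.1 CPM in *Upf2*-null blastocysts and 178 ± 24.7 CPM in control blastocysts (log2 fold change 0.14, SE 0.10). *Atg3*, whose promoter holds the CLEAR element shown, and *Atg10*, the E2-like enzymes for ATG8 and ATG12, had log2 fold changes of -0.17 and 0.51, the second from counts of no more than 99 in an embryo. *Atg16l1*, which anchors the ATG12-ATG5 conjugate to the membrane, had 95.7 ± 34.7 CPM in *Upf2*-null blastocysts and 105 ± 29.6 CPM in control blastocysts, and its relative *Atg16l2* had 64.7 ± 38.5 CPM in null and 60.2 ± 20.3 CPM in control blastocysts.

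**Figure D3:**
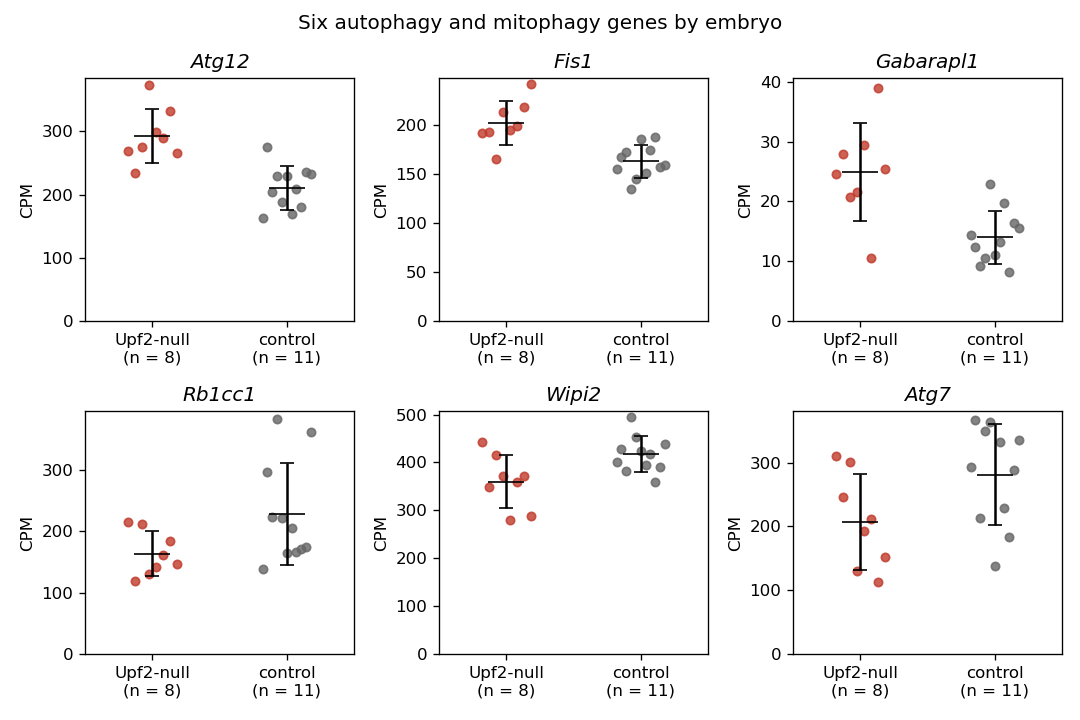
CPM in each embryo of the 6 members with an unadjusted edgeR p under 0.05, *Upf2*-null blastocysts (n = 8) left of controls (n = 11), each point 1 embryo, with the mean and SD as bars. *Atg12* and *Fis1* have all 8 *Upf2*-null blastocysts above the control median, while the groups of the 3 lower genes overlap, with 5 controls above every *Upf2*-null embryo for *Rb1cc1* and *Atg7*.

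The ATG8 proteins, the lipid-bound coat of the autophagosome, fall into the LC3 and GABARAP subfamilies. *Gabarapl1*, the member with the lowest level of the 5, had 10.6, 25.0 and 39.0 CPM in *Upf2*-null blastocysts and 8.25, 13.1 and 23.0 CPM in control blastocysts. The ranges overlapped, with 5 *Upf2*-null blastocysts above every control and *Upf2*-null 6 below the control median. The log2 fold change was 0.83 (SE 0.26, edgeR p = 0.00457, adjusted p = 0.256), and DESeq2 gave an adjusted p of 0.0628. *Gabarapl1* supplied 3.26% ± 1.09 (SD, n = 8) of the ATG8 level per kilobase in *Upf2*-null blastocysts and 1.79% ± 0.544 (SD, n = 11) in control blastocysts. 1700101I11Rik on the opposite strand overlaps 28.3% of its exon bases. *Map1lc3b* (LC3B) had 465 ± 40.0 CPM in *Upf2*-null blastocysts and 439 ± 61.8 CPM in control blastocysts (log2 fold change 0.08, edgeR p = 0.305). Of the *Upf2*-null blastocysts, 7 were above its control median. Limma voom with quality weights gave *Map1lc3b* a log2 fold change of 0.16 (p = 0.00888, adjusted p = 0.289). *Gabarap* (113 ± 10.7 CPM in null and 104 ± 9.91 CPM in control blastocysts) and *Gabarapl2* (297 ± 26.5 CPM in null and 293 ± 36.3 CPM in control blastocysts) had log2 fold changes of 0.11 and 0.02. *Map1lc3a* (LC3A) had 96.0, 128 and 193 CPM in *Upf2*-null blastocysts and 133, 170.5 and 216 CPM in control blastocysts. Its 4 lowest *Upf2*-null blastocysts lay below every control, but the difference did not pass in edgeR (log2 fold change -0.28, SE 0.14, p = 0.059, and -0.17 without *Upf2*-null 4 and 7 and control 6). Voom gave p = 0.0458 (adjusted p = 0.465). Reads of *Gabarapl2* may be shared with processed copies such as *Gm3724*, 99.4% identical over 349 bases.

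The 4 ATG4 proteases, which trim ATG8 proteins before conjugation and release them afterwards, had log2 fold changes from -0.29 (*Atg4d*) to 0.36 (*Atg4a*), none past a threshold. *Atg4b*, the main protease for LC3, was at 368 ± 35.6 CPM in *Upf2*-null blastocysts and 388 ± 47.6 CPM in control blastocysts. *Atg4a* had 63.1 ± 17.9 CPM in null and 49.2 ± 13.7 CPM in control blastocysts, and a copy, *Atg4a-ps*, matches it at 99.3% over 2115 bases, so its counts are uncertain. *Atg4c* had a log2 fold change of 0.08 (SE 0.38). *Atg4d* had 33.5 and 56.3 CPM in *Upf2*-null 4 and 7 and 37.5 CPM in control 6, against 88.1 to 191 CPM in the other *Upf2*-null blastocysts and 112 to 219 CPM in the other controls. Without these 3 embryos its log2 fold change was -0.12.

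None of the 3 receptors that tether ubiquitinated cargo to ATG8 proteins passed a threshold. *Sqstm1* (p62) had 221, 426 and 454 CPM in *Upf2*-null blastocysts and 243, 402 and 450.4 CPM in control blastocysts, with a log2 fold change of -0.07 (SE 0.14). *Nbr1* had 101 ± 45.6 CPM in null and 93.1 ± 29.6 CPM in control blastocysts, and *Optn* (optineurin), which also binds ubiquitinated mitochondria, had 46.4 ± 23.2 CPM in null and 43.6 ± 20.2 CPM in control blastocysts. The lowest *Sqstm1* values of each genotype, 221 and 243 CPM, came from *Upf2*-null 4 and control 6.

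Of the 5 mitophagy genes, *Fis1* alone passed an unadjusted p of 0.05. FIS1, an adaptor on the outer mitochondrial membrane, takes part in fission and in clearing damaged mitochondria. It had 165, 197 and 242 CPM in *Upf2*-null blastocysts and 135, 159.6 and 188 CPM in control blastocysts. Every *Upf2*-null embryo was above the control median, and 7 of 8 were above the highest control. The log2 fold change was 0.31 (SE 0.08, edgeR p = 0.000778, adjusted p = 0.147), and DESeq2 gave an adjusted p of 0.0341. With single embryos left out, edgeR's adjusted p ran from 0.0993 to 0.281. It was under 0.1 in 1 of 19 fits, the one without *Upf2*-null 3. The study named *Fis1* from these same embryos, so its direction is not independent evidence. *Bnip3* and *Bnip3l* (NIX), receptors that bind ATG8 proteins directly, had 229 ± 26.0 and 205 ± 26.5 CPM in *Upf2*-null blastocysts and 254 ± 48.2 and 226 ± 42.3 CPM in control blastocysts, with log2 fold changes of -0.15 and -0.14. Copies match both genes, *Gm16439* at 98.9% over 564 bases of *Bnip3* and *Bnip3l-ps* at 99.2% over 663 bases of *Bnip3l*, so their counts may be shared. *Fundc1*, another receptor of the outer membrane, had 138 ± 25.0 CPM in null and 126 ± 38.0 CPM in control blastocysts. *Pink1*, the kinase that marks damaged mitochondria, had 10.4, 66.6 and 117 CPM in *Upf2*-null blastocysts and 26.1, 77.1 and 121 CPM in control blastocysts, and the 2 lowest of all 19 embryos were *Upf2*-null 4 and 7.

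**Figure D4:**
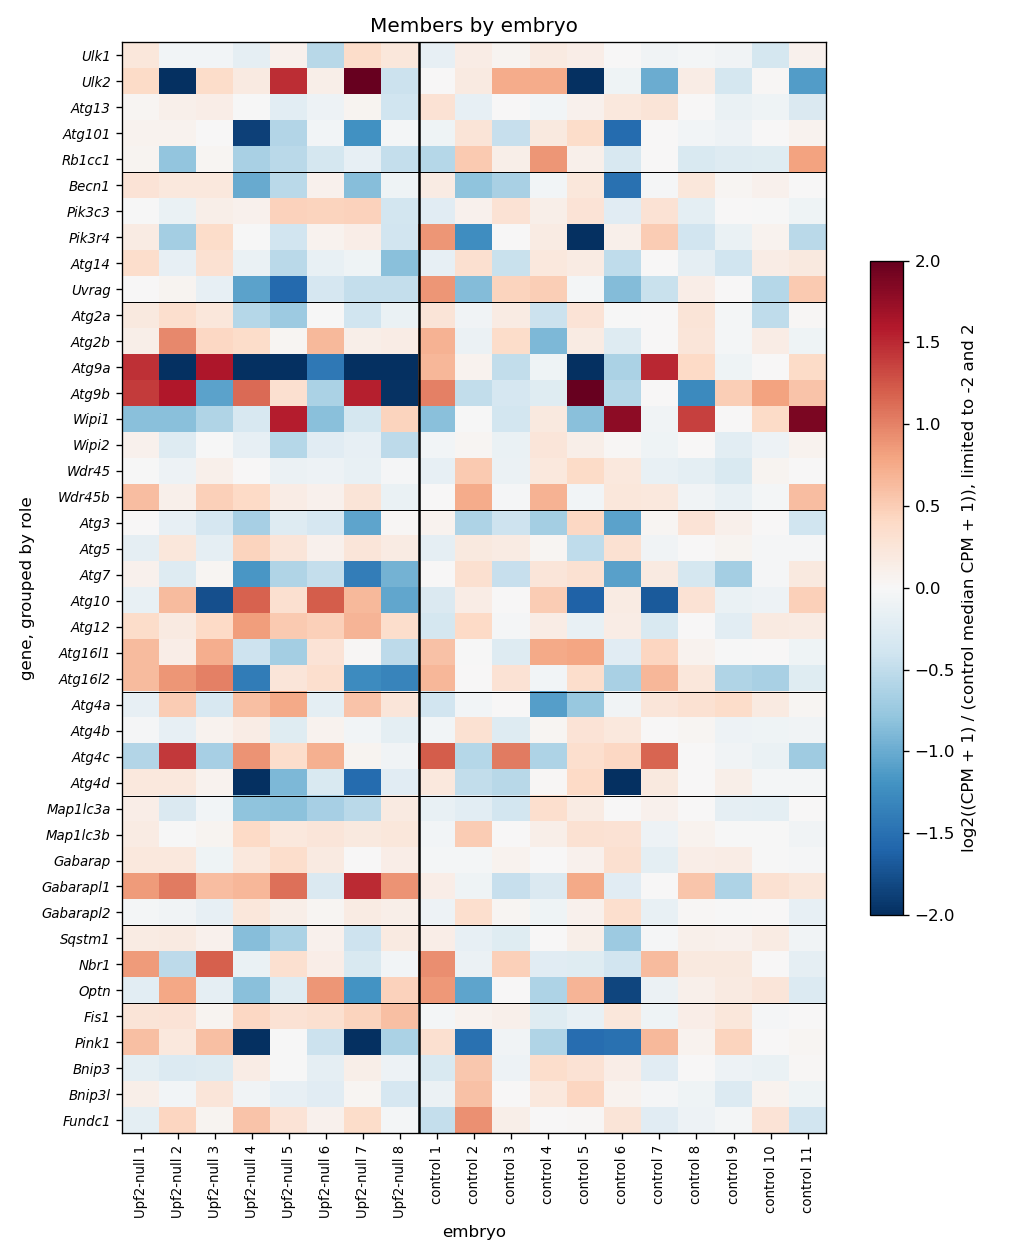
Each member (rows, grouped by role in the order of the text) in each embryo (columns, *Upf2*-null left of the line, controls right), as the log2 ratio of CPM + 1 to the control median + 1, with red above and blue below and the scale limited to -2 and 2. The columns of *Upf2*-null 4, *Upf2*-null 7 and control 6 share blue cells in *Atg101*, *Becn1*, *Atg3*, *Atg7*, *Atg4d* and *Optn*.

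The members varied between embryos of 1 genotype. The coefficient of variation had a median of 26.0% over the members in *Upf2*-null blastocysts and 27.3% in controls, although for 26 of the 42 members it was larger in *Upf2*-null blastocysts. The embryos singled out above crossed the genotypes: *Upf2*-null 4, *Upf2*-null 7 and control 6 were all among the 4 lowest embryos for 8 members, *Atg101*, *Becn1*, *Atg3*, *Atg7*, *Atg16l2*, *Atg4d*, *Sqstm1* and *Optn* (19% of 42, beside the 10.8% of genes given above). At least 2 of these 3 embryos were among the 4 highest for 10 members, *Atg12*, *Atg5*, *Atg10*, *Atg4a*, *Atg4b*, *Map1lc3b*, *Gabarap*, *Gabarapl2*, *Fis1* and *Fundc1* (23.8% of members, beside 24.3% of the same genes). These embryos were singled out after their values were seen, so these shares are not a test that they stand apart. Their total counts were 4431608, 4794356 and 4056072, within the range of the other libraries or just below it. Their summed trophectoderm markers were 1456, 1526 and 1645 CPM, but controls 2, 4 and 11 had lower sums (1357, 1130 and 1302 CPM). The part of total counts or of these markers in the pattern was not tested. *Atg4a*, *Fundc1* and *Wdr45* are X-linked, and Y-linked counts of at least 1400 in 6 of 8 *Upf2*-null blastocysts and at least 1147 in 8 of 11 controls, against at most 23 in the others, show embryos of either sex in both groups. With the Y-linked count as a covariate the same single member, *Atg12*, was called.

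Transcripts annotated as NMD substrates were counted for the members as a description. GENCODE classed at least 1 transcript as an NMD substrate for 12 of the 42 members (28.6%), among them *Wdr45* with 6 such transcripts and *Atg16l2* with 5, beside 26.6% of 14299 protein-coding genes tested. The longest 3′ UTR of a member had a median of 1231 bases, beside 1027 over those genes. Of the 6 members with an unadjusted p under 0.05, *Rb1cc1* alone had an annotated NMD transcript, and it was lower in *Upf2*-null blastocysts.

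Genes around the pathway were tested in the same fit. None of 15 fusion genes, 30 lysosomal genes, 34 genes of mTORC1 and AMPK control, 28 other autophagy and mitophagy genes or 14 genes of mitochondrial fission and fusion passed edgeR's adjusted threshold in either direction. Their median log2 fold changes were -0.02, -0.12, 0.01, -0.08 and 0.03. At an unadjusted p, the lysosomal membrane protein *Lamp1* was lower (539.6 ± 72.0 CPM in *Upf2*-null blastocysts and 613 ± 46.4 CPM in control blastocysts, p = 0.0217), as was the ER-phagy receptor *Tex264* (161 ± 37.7 CPM in null and 193 ± 23.1 CPM in control blastocysts, p = 0.0387). *Zdhhc4* (228 ± 38.2 CPM in null and 154 ± 40.1 CPM in control blastocysts, edgeR adjusted p = 0.149, DESeq2 0.0363) and *Mtcl1* (19.1 ± 13.1 CPM in null and 8.24 ± 3.53 CPM in control blastocysts, edgeR adjusted p = 0.256, DESeq2 0.0954) were higher by DESeq2, and the study named both from these embryos. Among fission and fusion genes *Mief1*, which recruits DRP1, had 100.1 ± 21.2 CPM in *Upf2*-null blastocysts and 77.0 ± 12.5 CPM in control blastocysts (p = 0.0101), and the fusion GTPase *Mfn1* had 213 ± 76.9 CPM in null and 284 ± 67.9 CPM in control blastocysts (p = 0.0473). *Gdap1* also passed this unadjusted rule, with no count in any *Upf2*-null embryo and a mean of 0.326 CPM in control blastocysts.

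The transcription factors ATF4 and CHOP activate a set of autophagy genes in starved mouse fibroblasts, and all 12 genes of that list are members. *Ddit3*, which encodes CHOP, was higher in *Upf2*-null blastocysts, with 50.7 to 87.0 CPM against 9.87 to 45.3 CPM in control blastocysts, ranges that did not overlap (log2 fold change 1.34, edgeR adjusted p = 0.0251). *Atf4* had 220.4 to 295 CPM in *Upf2*-null blastocysts and 154 to 268 CPM in control blastocysts (log2 fold change 0.43, edgeR adjusted p = 0.111). For *Atf4* DESeq2 gave an adjusted p of 0.0146 and limma voom 0.0185. Of the 12 genes 1 was called higher, *Atg12*, whose direction was known when the members were chosen, and 0 lower, beside 0.175% of all genes called higher and 0.0175% lower, with 7 log2 fold changes above 0 and 5 below and a median of 0.05. The other 11 ran from -0.44 (*Atg7*, p = 0.0466) to 0.51 (*Atg10*, p = 0.263).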

How the data were processed

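The authors aligned adapter-trimmed reads of SMARTer and Nextera XT libraries to GRCm38 (STAR 2.5.2a), discarded PCR duplicates (SAMtools) and deposited raw counts, which featureCounts had made per Ensembl gene. The deposited scaled expression values are a signal that the authors made from these counts with 1 factor per embryo: dividing out that factor gave whole reads for 100% of values over 16878 genes (within 0.05 reads), and edgeR on those reads called 30 genes higher and 3 lower. The merged transcript models were not tested. Of 41388 identifiers 40254 had a symbol (GENCODE M21). All 19 embryos entered a robust quasi-likelihood fit without covariates in edgeR 4.0.16 (R 4.3.3, TMM), limited to genes that reached 10 counts in 1 embryo or more. CPM are TMM-normalized. Intervals of 95% are normal intervals from the fitted SE and can be narrower than the quasi-likelihood test implies. DESeq2 1.42.0 and limma 3.58.1 were alternatives. Copies (at least 95% identity over 200 bases) were sought with blastn 2.17.0. The code was tested on simulated data. All 8 roles, the members, the gene lists, the motifs and the alternatives were chosen with earlier results of these data known. All 42 members are described, grouped by role, and those with an unadjusted edgeR p under 0.05 in full. P-values measure the spread between embryos, each a separate animal. Some embryos may share a litter, which the fit could not include. Depth limits *Wipi1*, *Atg9b* and *Atg10* most.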

Additional observations from a re-analysis of the deposited data

Results flagged for a closer look

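*Wipi1*, a PI3P-binding protein that recruits the conjugation machinery, had 4.326 CPM in *Upf2*-null embryo 5 against at most 1.425 CPM in the other 7 *Upf2*-null embryos. This was the only 1 of 42 *Upf2*-null member groups whose extreme embryo lay this far out (Dixon ratio 0.671, critical value 0.526). Chance flags about 1 group in 20 where values are normally distributed. *Wipi1* had 22 counts in embryo 5 and at most 6 in the other 7, so that rate may not hold here. Controls ran from 0 to 5.564 CPM. Without embryo 5 the log2 fold change of *Wipi1* was -2.29, against -1.04 with it, and neither passed the test.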

How the results depend on the processing

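All 6 genes with an unadjusted p under 0.05 kept their direction under every alternative run. The number of members called higher, 1, was 3 with DESeq2 and 0 with an adjusted p under 0.05, with the replicate block or without *Upf2*-null embryos 4 and 7 and control embryo 6 (an alternative chosen after seeing the data), and 0 to 2 with single embryos left out. The number called lower was 0 throughout. Members lower at an unadjusted p, 3, were 1 with the replicate block and 1 without control embryos 2 and 4, and 2 to 5 with single embryos left out, while those higher were 3 to 4. Limma voom also gave 3 lower, but *Atg9a* and *Map1lc3a* in place of *Rb1cc1* and *Atg7*, and it added *Map1lc3b* to those higher. The members' median log2 fold change was -0.0704 to 0.0176 with single embryos left out. The replicate numbers do not pair the embryos: the 8 same-numbered pairs correlated at -0.137 to 0.0687, 0 best with their own number, and the block called 0 genes in all. Of 1115 values of the other 36 members 9 moved by more than their SE and 0 were called. The level per length of *Gabarapl2* over *Gabarap*, 2.227, was 3.153 with median transcript length. Scaling moved the median of all genes by under 0.1. An ERCC scaling was not run. Counts of at most 99 in an embryo limit *Wipi1*, *Atg9b* and *Atg10*.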
